A study of Mus musculus with 12 samples.

Results

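The chromatin accessibility of Zbtb16, the gene of the transcription factor PLZF, was followed through the ATAC-seq libraries of thymic invariant natural killer T (iNKT) cells. ATAC-seq lets a transposase insert sequencing adapters into open chromatin, and the deposited values count these insertions in regions of 500 bp. A region belonged to Zbtb16 when it overlapped the gene body, chr9:48654297-48836222 on mm10, or the 10 kb on either side. By this rule 86 of the 63309 regions were taken, of which 80 overlapped the gene body itself. With 50 kb on either side there were 89.

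The libraries came from iNKT1, iNKT2 and iNKT17 cells of C57BL/6 mice and of Hivep3-/- mice, which lack the zinc finger protein Hivep3 and had been backcrossed to C57BL/6. The mice were 8 to 9 weeks of age and untreated, and both sexes were used. iNKT1 cells were sorted as CD122+ ICOS-, iNKT2 cells as CD122- ICOS+ Izumo1r+ CD138-, and iNKT17 cells as CD122- ICOS+ Izumo1r- CD138+. According to the methods the cells came from pooled thymi, and the subsets were combined for the transposition and sorted apart again by ICOS and CD138. The titles number single mice, so the 2 libraries of each of the 6 groups are called replicate 1 and replicate 2 here. Whether each library came from separate animals is not settled by these statements, and the p-values measure the spread between the libraries.

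PLZF is a transcription factor with a BTB domain and zinc fingers that recruits repressive complexes, and it is the factor through which iNKT cells acquire their innate-like effector program during their development in the thymus. Its gene is switched on early in the lineage, downstream of strong T cell receptor signals and of SLAM family receptors, by factors that include Egr2 and Runx1. PLZF protein is known to be most abundant in iNKT2 cells, which make interleukin 4, lower in iNKT17 cells, and lowest in iNKT1 cells, which make interferon gamma. Open regions within a gene body are often enhancers, and the long second intron of Zbtb16 is where most of the open regions of this gene lie.

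Zbtb16 (ENSMUSG00000066687.5) is transcribed from the minus strand and has 2 annotated transcripts with 7 exons each. The transcripts start at positions 48836222 and 48835945 of chromosome 9. The regions are named here by the distance of their centre downstream of the first of these start sites. Of the 86 regions, 46 lay in intron 2, 19 in intron 4 and 9 in intron 3. Intron 1 held 3, the last part of the gene from intron 5 to the last exon held 2, another 2 lay at or upstream of the start sites, and 5 lay downstream of the gene beyond its last exon. The GC content of the regions had a median of 49.8%, against 50% over all 63309 regions.

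The markers of the subsets were checked at promoters within 1000 bp of a start site. All 6 iNKT1 markers (Tbx21, Il2rb, Ifng, Klrd1, Nkg7 and Xcl1) and all 5 iNKT17 markers (Ccr6, Il23r, Il1r1, Sdc1 and Tmem176a) were most open in their own subset in both genotypes. Of 6 iNKT2 markers, 4 were most open in iNKT2 cells of C57BL/6 mice and 3 in those of Hivep3-/- mice, the exceptions being Gata3 and Icos and, in Hivep3-/- mice, Il13. No promoter region of the B cell genes Ms4a1 and Cd79a or of the immature thymocyte genes Rag1, Rag2, Cd8b1 and Ptcra was among the regions. Of the myeloid genes, Lyz2 and Csf1r had none either, and Spi1 had 1, whose highest value in a library was 40.8 on the linear scale. Of the T cell genes, Cd3e and Cd3g had promoter regions and Trac did not. A missing promoter region thus does not show that a cell type was absent. The 21 regions of Hivep3 gave no check of the genotype labels, because none of them was missing in Hivep3-/- libraries. At a region of Xist on the X chromosome the 6 Hivep3-/- libraries ranged from 4.01 to 5.04 (log2) and the 6 C57BL/6 libraries from 5.88 to 6.36. This difference ran with the genotype in every library. Its part in the results below cannot be told apart from that of the genotype and was not tested. The depth of the libraries cannot be read from normalised values.

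The level of the locus was taken as the mean linear value, in normalised insertions per kb, over the 86 regions. It was 38.7 and 37.7 in the C57BL/6 iNKT2 libraries, 32.4 and 32.9 in the C57BL/6 iNKT17 libraries and 24.4 and 22.7 in the C57BL/6 iNKT1 libraries. In Hivep3-/- mice it was 34.9 and 34.9 in iNKT2, 30.6 and 29.4 in iNKT17 and 16.8 and 16.0 in iNKT1 libraries. Zbtb16 was thus most open in iNKT2 and least open in iNKT1 cells of both genotypes, and within each subset both Hivep3-/- libraries lay below both C57BL/6 libraries. From the highest to the lowest group mean, the order was C57BL/6 iNKT2, Hivep3-/- iNKT2, C57BL/6 iNKT17, Hivep3-/- iNKT17, C57BL/6 iNKT1 and Hivep3-/- iNKT1, and no 2 neighbours in it had overlapping libraries. The step from C57BL/6 to Hivep3-/- was a change of -30.3% ± 4.32 for iNKT1 cells, -8.64% ± 1.66 for iNKT2 cells and -8.09% ± 2.91 for iNKT17 cells (SD propagated from n = 2 libraries per group). Taken from the mean of the log2 values instead, which gives weak regions more weight, the changes were -46.0%, -11.5% and -14.8%, and iNKT17 cells then changed more than iNKT2 cells. With 2 libraries against 2, an exact two-sided permutation test cannot go below p = 0.333, and these levels are a description without a test. In bulk libraries, fewer cells with an open region cannot be told apart from fewer insertions in every cell.

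**Figure D1:**
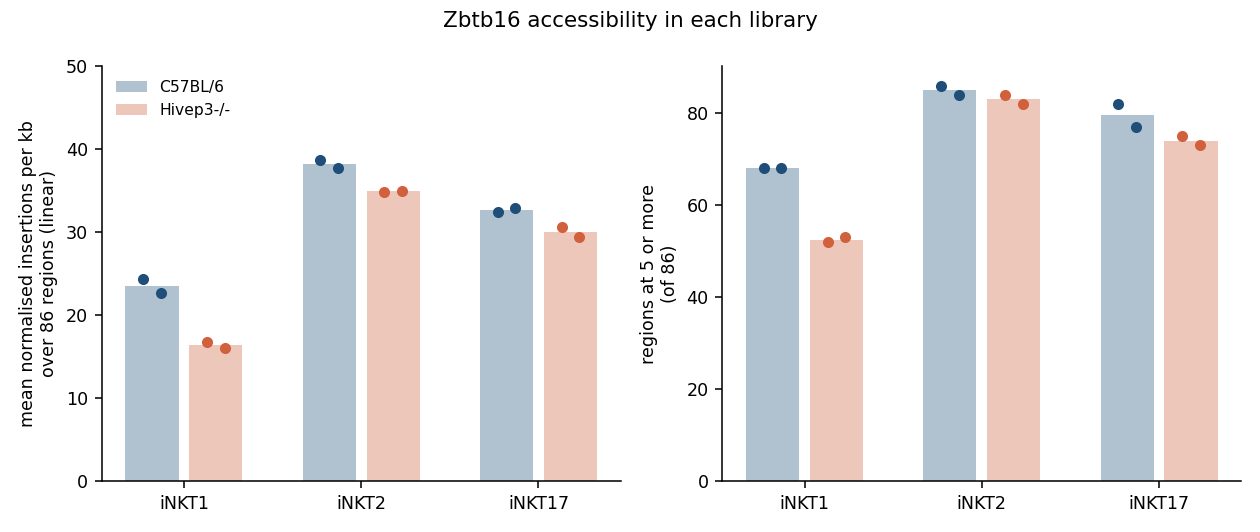
Level of the Zbtb16 locus in each of the 12 libraries. Points are libraries and bars are the means of 2 libraries, with the mean normalised insertions per kb over 86 regions on the left and the number of those regions at 5 or more on the right. The Hivep3-/- iNKT1 libraries are lowest in both, at 16.8 and 16.0 and at 52 and 53 regions.

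The group means of the number of open regions followed the same order. A region was counted as open at a value of at least 5, the limit of accessibility that the study used. In C57BL/6 mice, 86 and 84 of the 86 regions were open in the iNKT2 libraries, 82 and 77 in the iNKT17 libraries and 68 and 68 in the iNKT1 libraries. In Hivep3-/- mice the counts were 84 and 82, 75 and 73, and 52 and 53. Over all regions of the table the open share was nearly constant, between 81.8% and 83.0% in each library. The linear sums of the normalised libraries lay between 1915051 and 1919037, so the values had been scaled alike. The open share therefore gives no measure of a change in openness over the whole genome. No Zbtb16 region sat at the lowest value of any library.

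**Figure D2:**
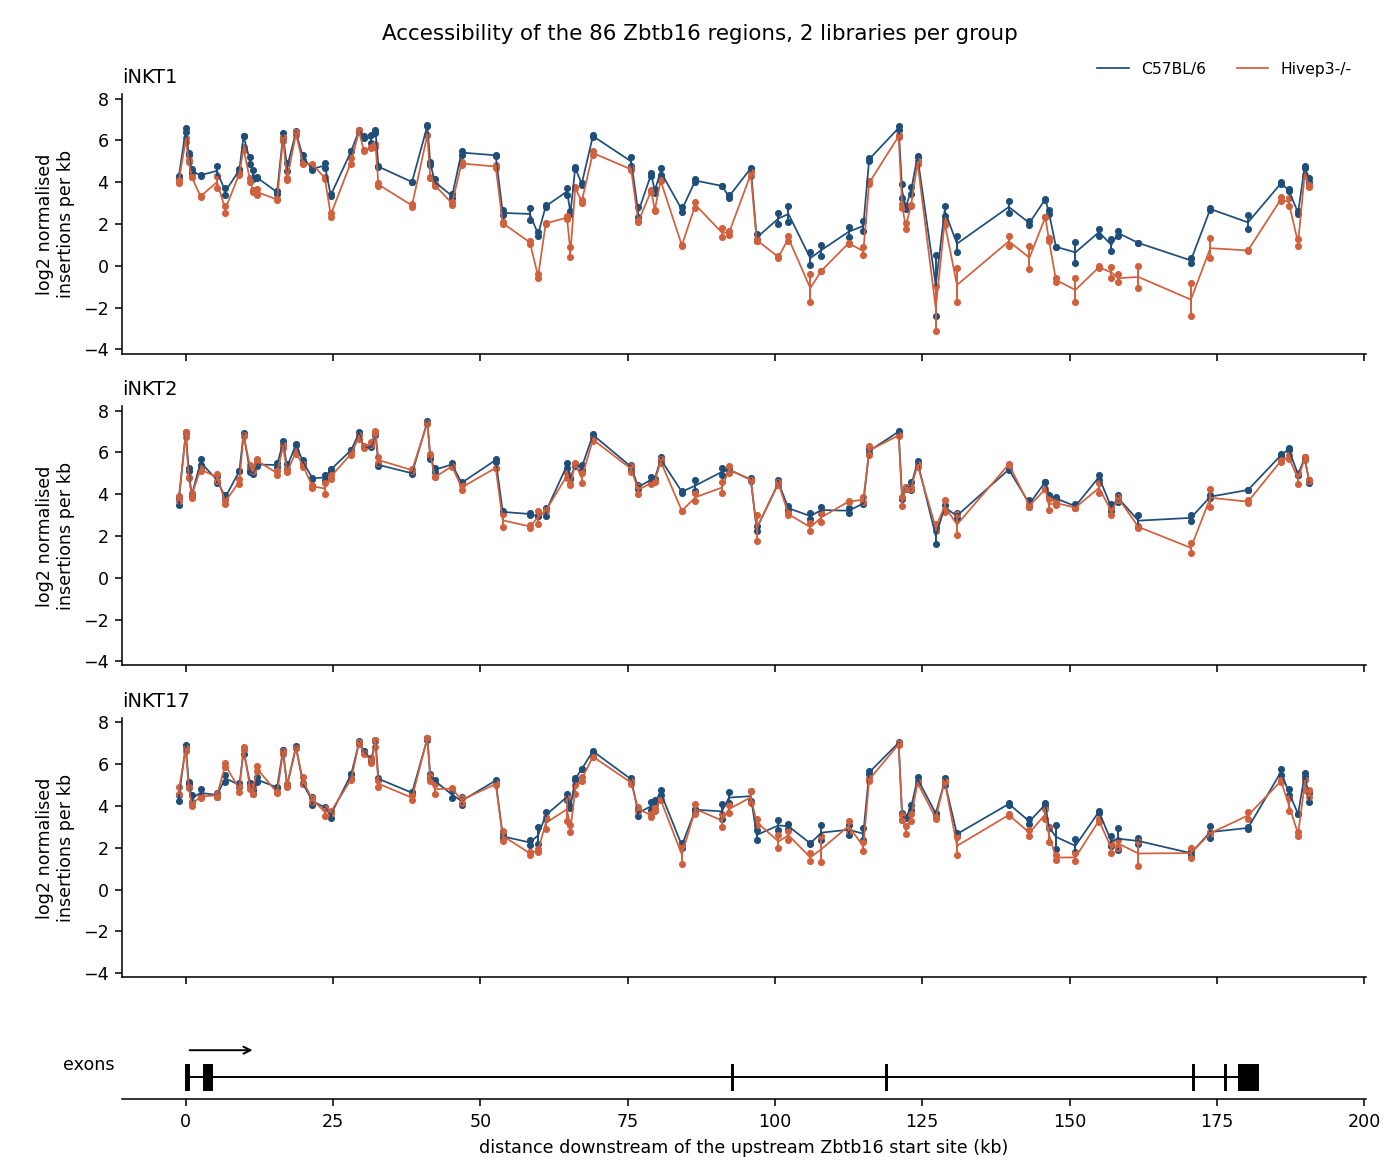
Accessibility along Zbtb16 in iNKT1, iNKT2 and iNKT17 cells, as log2 normalised insertions per kb against the distance in kb downstream of the first start site. Points are libraries, lines join the means of C57BL/6 or Hivep3-/- libraries, black boxes are exons, and the arrow gives the direction of transcription. The peaks at the start site and at 29.4, 41.0 and 121.0 kb stand out in all 3 subsets, while the stretch beyond 50 kb is lowest in Hivep3-/- iNKT1 cells.

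The region with the highest mean log2 value over the 12 libraries lay 41.0 kb into the gene, in intron 2 (chr9:48794959-48795458). In C57BL/6 mice its log2 value was 6.72 and 6.67 in iNKT1, 7.51 and 7.42 in iNKT2 and 7.26 and 7.18 in iNKT17 libraries. In Hivep3-/- mice it was 6.27 and 6.27 in iNKT1, 7.37 and 7.42 in iNKT2 and 7.27 and 7.27 in iNKT17 libraries. This region had the highest mean of the locus in 5 of the 6 groups, the exception being Hivep3-/- iNKT1 cells, where the regions at 29.4 and 18.7 kb were higher. In iNKT1 cells it fell by 0.43 ± 0.0643 (log2 change ± SE, limma, Benjamini-Hochberg adjusted p = 0.00158). The next highest means were those of regions at 29.4 kb in intron 2 (chr9:48806595-48807094) and at 121.0 kb in intron 4 (chr9:48715006-48715505).

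The region at 29.4 kb held 6.44 and 6.50 in C57BL/6 and 6.48 and 6.39 in Hivep3-/- iNKT1 libraries, a log2 difference of -0.04 ± 0.0832 with the adjusted p at 0.908. The genotypes overlapped there. The region at 121.0 kb held 6.69 and 6.50 in C57BL/6 and 6.24 and 6.16 in Hivep3-/- iNKT1 libraries. It fell by 0.39 ± 0.0783 (limma adjusted p = 0.0091), a call that was lost without C57BL/6 replicate 1 (adjusted p = 0.129) or Hivep3-/- replicate 2 (adjusted p = 0.105).

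The start sites carried 4 regions within 1000 bp, where transcription of Zbtb16 begins. The region over the first start site (chr9:48836004-48836503) held 6.57 and 6.42 in C57BL/6 and 5.94 and 6.11 in Hivep3-/- iNKT1 libraries. It fell by 0.47 ± 0.102 in iNKT1 cells (limma adjusted p = 0.015), and the call was lost without C57BL/6 replicate 1 (adjusted p = 0.168) or Hivep3-/- replicate 1 (adjusted p = 0.145). In iNKT2 cells its libraries overlapped, with 6.97 and 6.92 in C57BL/6 and 6.99 and 6.73 in Hivep3-/- mice, and the difference was -0.09 ± 0.102 (adjusted p = 0.663). In iNKT17 cells it was -0.17 ± 0.102 (adjusted p = 0.446). The lowest value of this region in any of the 12 libraries was 5.94.

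Of the other 3 regions near the start sites, the one 0.5 kb downstream passed the test in iNKT2 cells, where it fell by 0.36 ± 0.118 (limma adjusted p = 0.0664). That call was lost on leaving out any 1 of the 4 libraries, with the adjusted p between 0.125 and 0.292. In iNKT1 cells the same region differed by -0.34 ± 0.116 (adjusted p = 0.115). The regions 1.0 kb downstream and 1.2 kb upstream passed in no subset, with differences between -0.29 and 0.36. Upstream of the gene and 1.0 kb into it, iNKT2 cells were the lowest subset in C57BL/6 mice, which was so at 3 of the 86 regions, the last of them at 18.7 kb. The upstream region held 3.83 and 3.48 in C57BL/6 iNKT2 libraries, against 4.29 and 4.21 in iNKT1 and 4.54 and 4.24 in iNKT17 libraries.

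The sequences of 4 regions that the results turn on are given from the GRCm38.p6 (mm10) reference, plus strand, as the 300 bases around the centre of each. They are the region of the highest mean (41.0 kb), the region with the largest genotype change (91.0 kb), the one with the largest difference between subsets (127.3 kb), and the one whose genotype change differed most between subsets (158.3 kb). Capitals mark matches to the motifs searched on both strands, whose letters are given with the counts after the sequences.
Region 41.0 kb (chr9:48795059-48795358): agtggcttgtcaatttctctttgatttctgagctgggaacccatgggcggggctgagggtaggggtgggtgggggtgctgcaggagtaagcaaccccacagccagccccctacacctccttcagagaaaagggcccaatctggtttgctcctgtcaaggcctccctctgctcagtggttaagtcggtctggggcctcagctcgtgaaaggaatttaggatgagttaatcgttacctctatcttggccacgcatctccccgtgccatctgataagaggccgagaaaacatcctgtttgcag
Region 91.0 kb (chr9:48745033-48745332): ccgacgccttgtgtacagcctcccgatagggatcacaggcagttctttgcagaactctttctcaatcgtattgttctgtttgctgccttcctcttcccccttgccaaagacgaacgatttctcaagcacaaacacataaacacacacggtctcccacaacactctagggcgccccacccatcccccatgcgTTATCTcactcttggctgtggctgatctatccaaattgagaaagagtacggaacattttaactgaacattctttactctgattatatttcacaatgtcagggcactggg
Region 127.3 kb (chr9:48708743-48709042): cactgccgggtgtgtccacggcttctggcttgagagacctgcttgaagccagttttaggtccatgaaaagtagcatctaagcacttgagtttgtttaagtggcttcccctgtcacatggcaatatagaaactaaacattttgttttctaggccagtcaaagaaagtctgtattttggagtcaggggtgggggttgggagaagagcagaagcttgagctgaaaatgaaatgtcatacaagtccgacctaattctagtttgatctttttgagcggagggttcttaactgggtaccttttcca
Region 158.3 kb (chr9:48677725-48678024): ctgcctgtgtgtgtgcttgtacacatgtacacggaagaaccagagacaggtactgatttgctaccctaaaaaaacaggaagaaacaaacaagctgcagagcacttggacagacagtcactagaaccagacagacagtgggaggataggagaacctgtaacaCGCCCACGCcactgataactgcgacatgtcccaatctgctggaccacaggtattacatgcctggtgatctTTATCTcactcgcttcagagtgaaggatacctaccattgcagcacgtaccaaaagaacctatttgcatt
In these windows the region at 41.0 kb and the region at 127.3 kb held 0 matches, the region at 91.0 kb held a GATA match on the minus strand, and the region at 158.3 kb held an Egr and a GATA match, also on the minus strand. Over the whole 500 bp, the region at 158.3 kb was the only Zbtb16 region with an Egr match, searched as GCGTGGGCG or GCGGGGGCG, which made 1 of 86 or 1.16%, against 2.89% of all regions. The E box CACCTG, bound by E proteins, was found in 33.7% of the Zbtb16 regions and 34.6% of all regions. A second form of the E box, with the letters CAGCTG, was in 24.4% of the Zbtb16 regions and 27.1% of all regions. The GATA motif AGATAA was in 20.9% and 20.6%. The motif of Runt factors such as Runx1, with the letters AACCACA, was in 9.30% of the Zbtb16 regions and in 17.4% of all regions. The AP-1 motif TGAGTCA was in 9.30% and 11.5%, and the motif of TCF factors, which are abundant in thymocytes, was searched as CTTTGAA and was in 10.5% and 11.2%. The T-box motif AGGTGTGA, which can overlap an E box on the other strand, was in 2.33% and 2.91%. The NF-kB motif GGGACTTTC matched 0 of 86, against 0.853% of all regions. These are matches of letters and not sites of binding.

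The study compared the accessibility of each subset between the genotypes across the genome, and at Zbtb16 the largest changes were in iNKT1 cells. In Hivep3-/- iNKT1 cells 85 of the 86 regions had a lower mean than in C57BL/6 iNKT1 cells, with a median log2 difference of -0.78 and a range from -2.23 to 0.22. Over all 63309 regions 53.6% were lower and the median was -0.02. Both Hivep3-/- libraries lay below both C57BL/6 libraries at 79 of the 86 regions, against 28.3% of all regions. The single region that was higher, 21.5 kb into the gene and named after its values were seen, held 4.60 and 4.68 in C57BL/6 and 4.83 and 4.88 in Hivep3-/- libraries (adjusted p = 0.545).

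The test was limma's moderated test on the log2 values, and covered the regions whose linear group mean reached 5 in one or both of the compared groups. In iNKT1 cells 68 of the 86 regions met that limit, and 45 of them fell at an adjusted p under 0.1, where 4.01% of all tested regions did. None rose (0 at an unadjusted p under 0.05 as well), against 5.53% of all tested regions. With the study's second threshold, a change of 3-fold or more, added to the first, 6 fell, against 0.262% of all tested regions. All 6 met the level limit through C57BL/6 cells alone, the group in which they were high. Of the 68, 52 met the limit in both genotypes, and 32 of these 52 fell, 0 of them by 3-fold, while 13 of the 16 that met it in C57BL/6 cells alone fell. Without C57BL/6 replicate 1 the 45 became 28, and without Hivep3-/- replicate 2 they became 29. A pseudocount of 5 on the linear scale brought the 6 to 0 and left the count at any fold within 1.5 times. The 18 regions below the limit were all lower in Hivep3-/- cells too, but were not tested.

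**Figure D3:**
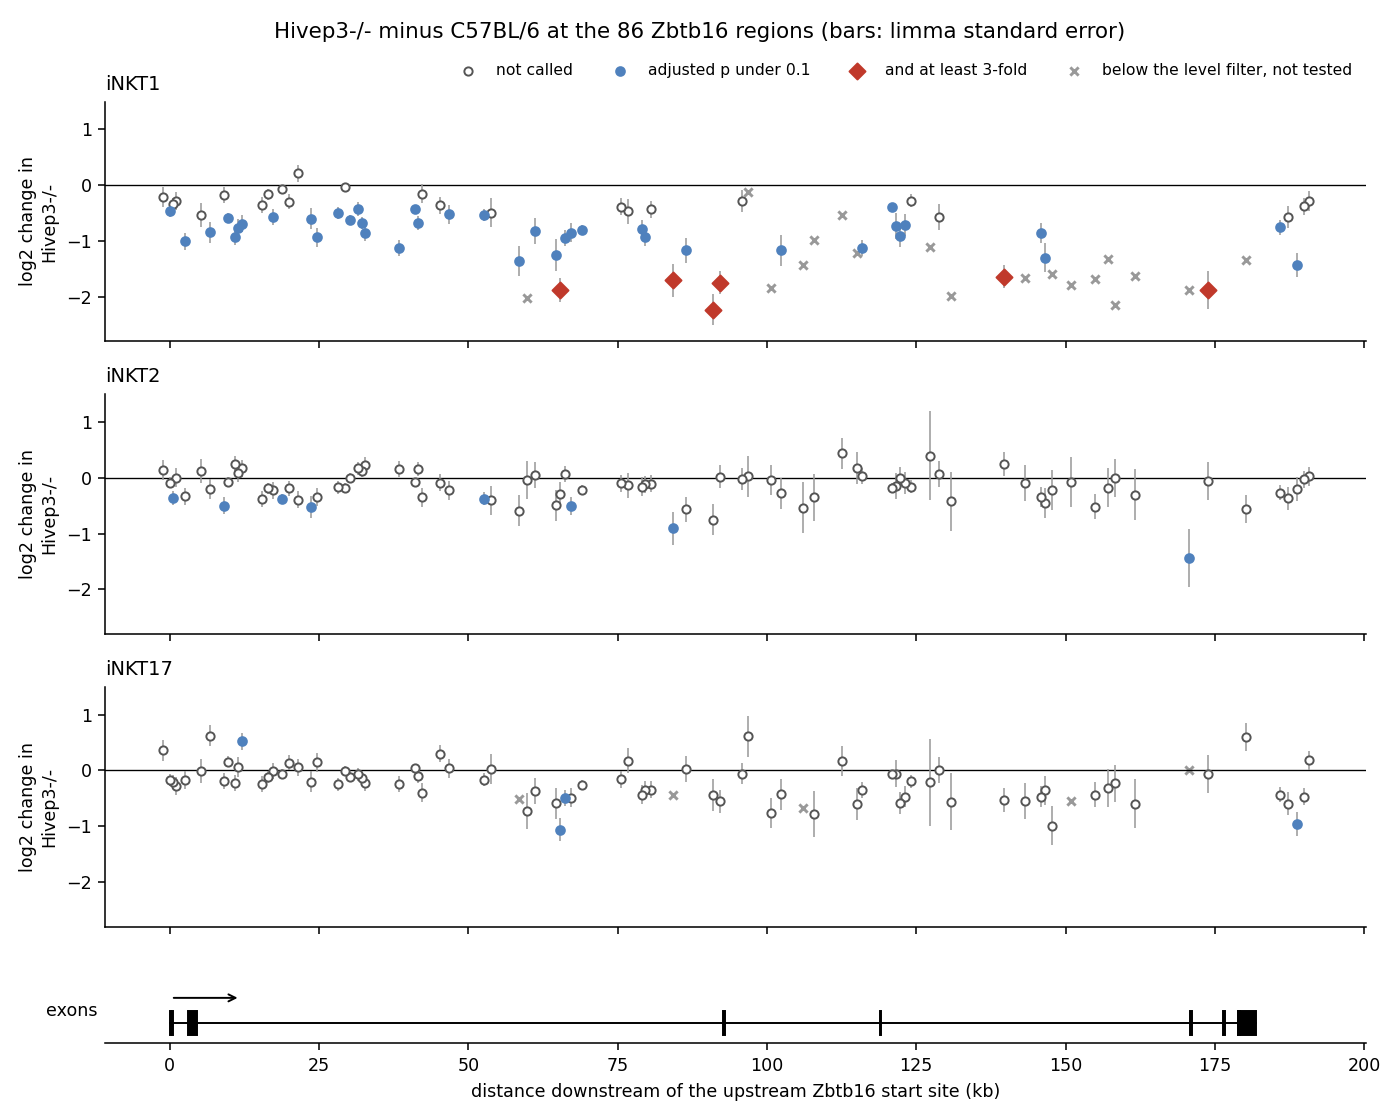
Genotype change along Zbtb16, as the log2 value of Hivep3-/- minus C57BL/6 against the distance in kb downstream of the first start site, for each subset. Filled circles passed an adjusted p under 0.1, red diamonds also 3-fold, open circles did not pass, crosses were below the level limit and not tested, and bars are standard errors. In iNKT1 cells 85 of 86 regions lie below 0 and 6 are diamonds, while iNKT2 and iNKT17 cells have no diamond.

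All 6 regions past both thresholds lay in introns. Region 91.0 kb (intron 2, chr9:48744933-48745432) held 3.83 and 3.81 in C57BL/6 and 1.37 and 1.81 in Hivep3-/- iNKT1 libraries, and fell by 2.23 ± 0.285 (limma adjusted p = 0.000552). Its neighbour at 92.2 kb (chr9:48743769-48744268) held 3.26 and 3.37 against 1.66 and 1.48, and fell by 1.75 ± 0.207 (adjusted p = 0.000332). Both sit at the far end of intron 2, just ahead of exon 3, and the libraries of the genotypes did not overlap at either. Region 65.3 kb in the same intron (chr9:48770701-48771200) went from 2.63 and 2.45 to 0.40 and 0.91, a drop by 1.88 ± 0.212 (adjusted p = 0.000233). These 3 were also past both thresholds on leaving out any 1 of the 4 iNKT1 libraries.

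The other 3 were less firm. Region 84.2 kb in intron 2 (chr9:48751810-48752309) went from 2.81 and 2.56 to 0.99 and 0.97 and fell by 1.71 ± 0.291 (limma adjusted p = 0.00369), and was under 3-fold without C57BL/6 replicate 1, at -1.58. Region 139.7 kb in intron 4 (chr9:48696236-48696735) went from 3.11 and 2.52 to 0.94 and 1.40 and fell by 1.64 ± 0.211 (adjusted p = 0.000564), and was under 3-fold without C57BL/6 replicate 1 (-1.35) or Hivep3-/- replicate 1 (-1.41). Region 173.9 kb in intron 5 (chr9:48662039-48662538) went from 2.75 and 2.69 to 0.35 and 1.33 and fell by 1.87 ± 0.34 (adjusted p = 0.00537), and was under 3-fold without Hivep3-/- replicate 1 (-1.38). In each of the 6 both Hivep3-/- libraries were below both C57BL/6 libraries.

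The log2 change in iNKT1 cells was larger toward the 3' part of the gene, where the level was also lower. Its median over regions was -0.34 at and upstream of the start sites, -0.34 in intron 1, -0.65 in intron 2, -1.13 in intron 3, -1.32 in intron 4 and -1.61 over the 2 regions from intron 5 to the last exon. The 5 regions beyond the gene returned to -0.57. The median log2 level in C57BL/6 iNKT1 cells was 4.52 in intron 2, 1.91 in intron 3, 2.05 in intron 4 and 3.95 downstream of the gene, so position and level moved together. By mean level over the 4 iNKT1 libraries, the median change was -1.61 in 26 regions under 2, -0.88 in 10 regions from 2 to 3, -0.76 in 17 from 3 to 4, -0.48 in 16 from 4 to 5 and -0.43 in 17 above 5. All regions of the table in the same bins had medians between -0.08 and -0.01. The median of the Zbtb16 regions was below that of all regions in each of the 5 bins, and its size on the log2 scale moved with the level.

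**Figure D4:**
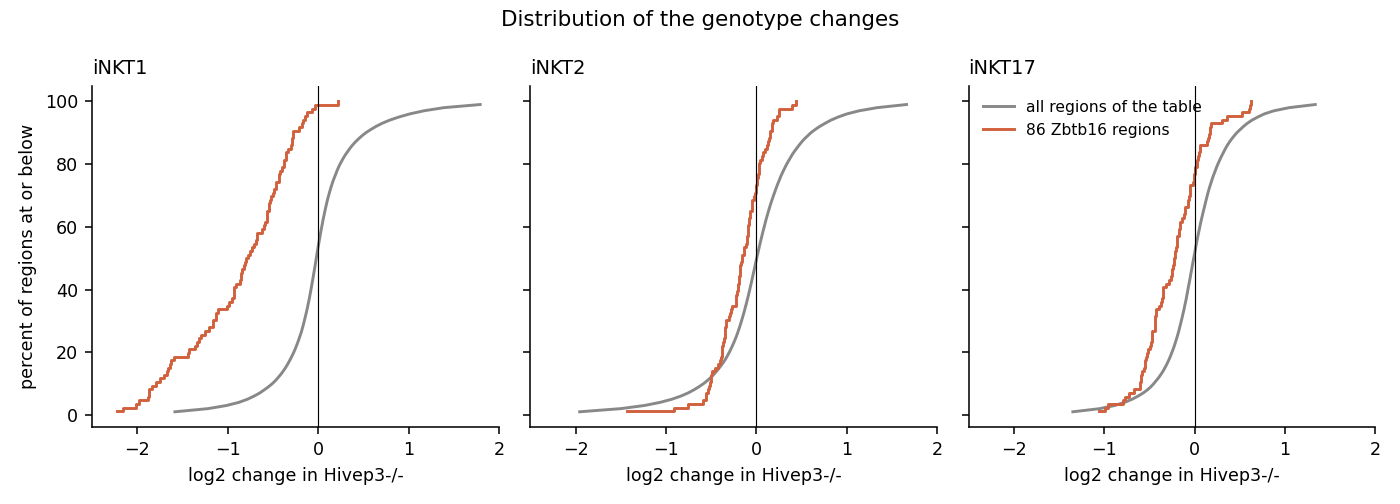
Cumulative share of regions by their log2 change in Hivep3-/- cells, for the 86 Zbtb16 regions (stepped orange line) and all regions of the table (grey line). In iNKT1 cells the Zbtb16 line lies to the left over its whole length, with 85 of 86 regions below 0, while in iNKT2 and iNKT17 cells 63 and 66 are below 0.

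The iNKT2 markers moved with this result in part. In iNKT1 cells their summed promoter level was 331 in C57BL/6 and 304 in Hivep3-/- mice, with Il4 at 35.1 and 20.1 and Izumo1r at 45.5 and 38.7 but Ccr7 at 62.5 and 68.7, while the iNKT1 markers summed to 650 and 650. Whether fewer iNKT2 cells in the sorted iNKT1 population had a part in the result was not tested. In iNKT2 cells the iNKT1 markers summed to 282 in C57BL/6 and 229 in Hivep3-/- mice, with Ifng at 28.2 and 6.64 and Il2rb at 197 and 188. Nor was the part of fewer iNKT1 cells in the sorted iNKT2 population tested. The paper reports lower ICOS protein in Hivep3-/- iNKT cells, and ICOS was used in both sorts, whose part was not tested. The number of distinct values up to the median, which grows with depth where values come from whole counts, was 139 and 170 in C57BL/6 and 227 and 491 in Hivep3-/- iNKT1 libraries. In the other subsets it was lower in Hivep3-/- libraries. It was 219 and 159 in C57BL/6 against 91 and 118 in Hivep3-/- iNKT2 libraries, and 142 and 134 against 85 and 73 in iNKT17 libraries. The part of depth was not tested.

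In iNKT2 cells the change was small. There 63 of the 86 regions were lower in Hivep3-/- cells, with a median of -0.16, against 49.5% of all regions and a median of 0.00. The libraries of the genotypes were fully apart downward at 41 regions (25.6% of all regions). All 86 entered the test, and 8 fell at an adjusted p under 0.1, which is 9.30% of them, against 8.23% of all tested regions. None rose (8.41% of all tested regions did), and at an unadjusted p under 0.05 the counts were 0 higher and 17 lower. At 3-fold 0 fell, against 1.17%, and none did at an unadjusted p under 0.05. The 8 became 1, 2 or 1 without C57BL/6 replicate 1, C57BL/6 replicate 2 or Hivep3-/- replicate 1.

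The largest of these changes was at 170.6 kb in intron 4 (chr9:48665362-48665861), which held 2.72 and 3.01 in C57BL/6 and 1.66 and 1.20 in Hivep3-/- iNKT2 libraries. Of the called regions, 7 met the level limit in both genotypes. This region met it through C57BL/6 cells alone, where it was high. It fell by 1.44 ± 0.522 (limma adjusted p = 0.0983) and was lost on leaving out any 1 of the 4 libraries, with the adjusted p between 0.165 and 0.349. The region with the smallest p was at 18.7 kb in intron 2, named after its values were seen, and it fell by 0.38 ± 0.0818 (adjusted p = 0.0102). The 6 regions past 3-fold in iNKT1 cells behaved unequally here. Region 92.2 kb held 5.16 and 5.17 in C57BL/6 and 5.01 and 5.35 in Hivep3-/- iNKT2 libraries, which overlap, and region 139.7 kb was higher in Hivep3-/- cells, at 5.40 and 5.46 against 5.15 and 5.21. Region 84.2 kb was lower, at 3.20 and 3.21 against 4.06 and 4.16.

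In iNKT17 cells 66 of the 86 regions were lower in Hivep3-/- cells, with a median of -0.23, against 51.5% of all regions and a median of -0.01. The libraries were fully apart downward at 45 regions (22.3% of all regions). Of 81 tested, 3 fell at an adjusted p under 0.1 (2.08% of all tested regions) and 1 rose (2.74%), and 0 fell 3-fold (0.144%), with 0 at an unadjusted p under 0.05 too. At that unadjusted p, 22 were lower and 3 higher. The 4 calls became 0, 2, 9 or 0 without C57BL/6 replicate 1, C57BL/6 replicate 2, Hivep3-/- replicate 1 or Hivep3-/- replicate 2.

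The largest drop in iNKT17 cells was at 65.3 kb, with 4.02 and 3.91 in C57BL/6 and 3.07 and 2.75 in Hivep3-/- libraries, and it fell by 1.06 ± 0.214 (limma adjusted p = 0.0233). The call was lost without C57BL/6 replicate 1 (adjusted p = 0.169) or Hivep3-/- replicate 2 (adjusted p = 0.125). The region that rose was at 12.1 kb in intron 2, named after its values were seen, at 5.66 and 5.91 against 5.14 and 5.39, by 0.52 ± 0.149 (adjusted p = 0.0896). In iNKT1 cells the same region went the other way, from 4.18 and 4.26 to 3.38 and 3.68.

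Whether the genotype change differed between subsets was tested as an interaction. The change was less negative in iNKT2 than in iNKT1 cells at 78 of the 86 regions, and 29 passed an adjusted p under 0.1, against 4.75% of all tested regions, all of them in that direction. At 3-fold 7 passed, against 1.0%. Between iNKT17 and iNKT1 cells 81 of the 86 had the less negative change in iNKT17, 18 of 83 tested passed (1.35% of all tested regions), and 4 passed at 3-fold (0.378%). The regions below the level limit in iNKT1 cells of both genotypes that were tested here entered through the other subset alone, where they were higher. The counts of these interactions were not split by that route. Between iNKT2 and iNKT17 cells limma called 0 higher at any fold (1.28%) and 0 at 3-fold (0.348%), while 6 were higher and 3 lower at an unadjusted p under 0.05. Without 1 library the 29 ranged from 17 to 28 and the 18 from 5 to 17, the lowest counts being those without C57BL/6 iNKT2 replicate 2 and without C57BL/6 iNKT1 replicate 1. A pseudocount of 1 brought the 7 and the 4 to 0.

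The largest interaction was at 158.3 kb in intron 4 (chr9:48677625-48678124), shown by its sequence above. It held 1.43 and 1.69 in C57BL/6 and -0.78 and -0.41 in Hivep3-/- iNKT1 libraries, but 3.64 and 3.97 in C57BL/6 and 3.86 and 3.72 in Hivep3-/- iNKT2 libraries. The genotypes were apart in iNKT1 and overlapped in iNKT2 cells, and the difference between the changes was 2.15 ± 0.484 (limma adjusted p = 0.0189). In iNKT17 cells it held 1.91 and 2.96 in C57BL/6 and 2.01 and 2.40 in Hivep3-/- libraries, and differed from the iNKT1 change by 1.92 ± 0.484 (adjusted p = 0.0659). The iNKT1 values are low, and on that account the region was not tested within iNKT1 cells.

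Region 139.7 kb had the interaction between iNKT2 and iNKT1 cells with the smallest adjusted p of the 3 largest, 1.89 ± 0.299 (limma adjusted p = 0.00325). Region 59.8 kb in intron 2 (chr9:48776137-48776636) had 1.97 ± 0.478 (adjusted p = 0.027), from 1.43 and 1.60 to -0.59 and -0.41 in iNKT1 and from 2.94 and 2.94 to 3.20 and 2.59 in iNKT2 libraries, and lost its call without Hivep3-/- iNKT2 replicate 1 (adjusted p = 0.100). At the last exon, region 180.3 kb (chr9:48655713-48656212) went from 2.41 and 1.74 to 0.70 and 0.76 in iNKT1 and from 2.92 and 2.98 to 3.72 and 3.38 in iNKT17 libraries. The interaction there was 1.94 ± 0.35 (adjusted p = 0.0142), while the iNKT17 difference by itself, 0.60 ± 0.244, did not pass (adjusted p = 0.242). Regions 180.3, 59.8 and 100.6 kb were below the level limit in iNKT1 cells of both genotypes, were not tested there, and entered the interactions through the other subset. Between iNKT2 and iNKT17 cells the largest difference was at 170.6 kb, -1.44 ± 0.684 (adjusted p = 0.349).

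**Figure D5:**
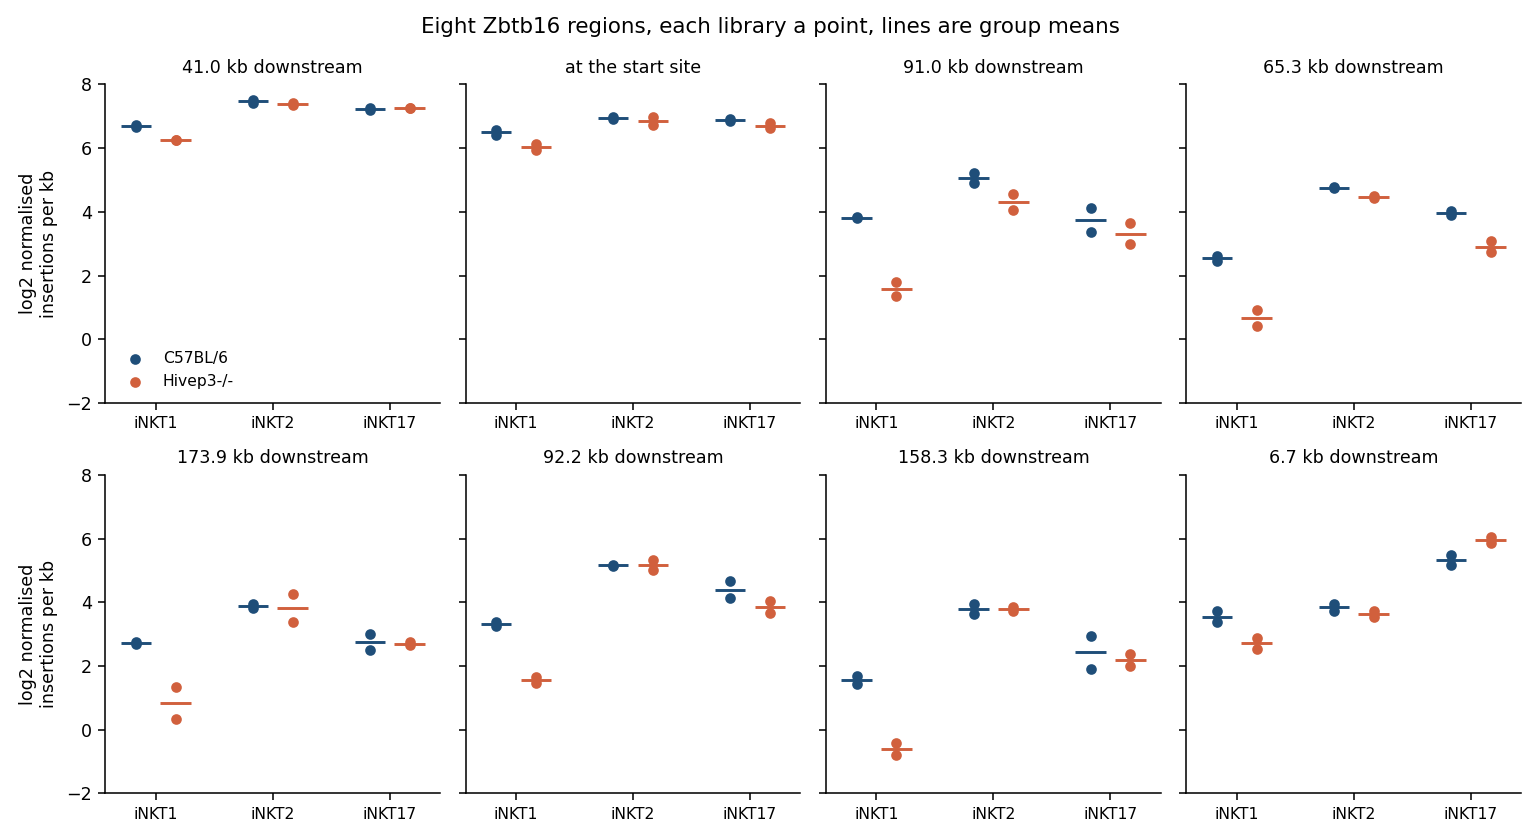
Log2 normalised insertions per kb of 8 Zbtb16 regions in each library, by subset and genotype, with lines at the group means. The region at 41.0 kb and the start site stay between 5.94 and 7.51 in all libraries, the regions at 91.0, 65.3, 173.9, 92.2 and 158.3 kb are lowest in Hivep3-/- iNKT1 cells, and the region at 6.7 kb is highest in iNKT17 cells.

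Between the subsets of C57BL/6 mice, iNKT2 cells were the most open at 67 of the 86 regions and iNKT1 cells the least open at 69. Against iNKT1 cells, iNKT2 cells were higher at 80 of 86 regions, with a median log2 difference of 0.98 where all regions had -0.01. Of 85 tested, 66 were higher (28.0% of all tested regions) and 3 were lower (27.3%), and 24 were higher by at least 3-fold (8.71%). The 3 lower ones were the region at 46.8 kb, the region 1.0 kb downstream of the start site and the region 1.2 kb upstream of it. The first of these (intron 2, chr9:48789177-48789676), named after its values were seen, held 5.52 and 5.32 in iNKT1 and 4.56 and 4.52 in iNKT2 libraries. A pseudocount of 5 brought the 24 to 6. In the C57BL/6 iNKT1 libraries 68 and 68 regions were at 5 or more. Part of the regions tested against iNKT1 cells, for iNKT2 and for iNKT17, thus entered through the other subset alone, where they were high. The counts were not split by that route.

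The 3 largest differences all lay in intron 4. Region 155.0 kb (chr9:48680996-48681495) held 4.93 and 4.70 in iNKT2 and 1.77 and 1.44 in iNKT1 libraries of C57BL/6 mice and was higher by 3.21 ± 0.229 (limma adjusted p = 2.27e-07). Region 147.7 kb (chr9:48688297-48688796) held 3.74 and 3.84 against 0.92 and 0.91, a difference of 2.88 ± 0.352 (adjusted p = 1.84e-05). Region 151.0 kb (chr9:48684970-48685469) held 3.34 and 3.51 against 0.15 and 1.13, a difference of 2.79 ± 0.439 (adjusted p = 0.000149). At all 3 iNKT2 cells passed the limit of 5 on the linear scale and iNKT1 cells did not.

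iNKT17 cells of C57BL/6 mice lay between. Against iNKT1 cells they were higher at 71 of 86 regions with a median of 0.56, and of 83 tested 51 were higher (28.2% of all tested regions), 5 lower (30.3%) and 9 higher by at least 3-fold (10.8%, which is also the share among the Zbtb16 regions tested). The largest difference was at 127.3 kb in intron 4 (chr9:48708643-48709142), with 3.68 and 3.62 in iNKT17 and 0.51 and -2.39 in iNKT1 libraries. It was 4.59 ± 0.787 (limma adjusted p = 0.000231) and rests on low and scattered values in iNKT1 cells. Its neighbour at 128.8 kb (chr9:48707142-48707641) held 5.00 and 5.36 against 2.39 and 2.88 and was higher by 2.55 ± 0.235 (adjusted p = 1.02e-06). Region 155.0 kb followed with 2.12 ± 0.232 (adjusted p = 4.51e-06).

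Between iNKT2 and iNKT17 cells of C57BL/6 mice, iNKT2 cells were higher at 70 of 86 regions with a median of 0.35. Of the 86 tested, 45 were higher (29.1% of all tested regions) and 8 lower (23.3%), while 2 were higher (7.72%) and 1 lower (8.49%) by at least 3-fold, both under the background. The counts were not split by the subset through which a region met the level limit. Region 84.2 kb was higher in iNKT2 cells by 2.00 ± 0.293 (limma adjusted p = 8.19e-05), with 4.06 and 4.16 against 2.00 and 2.24. It was below the limit in iNKT17 cells and was tested through iNKT2 cells alone, where it was high. Region 24.6 kb in intron 2 (chr9:48811380-48811879) was higher by 1.59 ± 0.168 (adjusted p = 5.08e-06), with 5.14 and 5.20 against 3.71 and 3.45, and was under 3-fold without C57BL/6 iNKT2 replicate 2 (1.56) or iNKT17 replicate 2 (1.46). Region 128.8 kb fell by 1.82 ± 0.235 from iNKT17 to iNKT2 cells (adjusted p = 2.82e-05), with 3.47 and 3.24 in iNKT2 libraries. The count of 3 past 3-fold became 7 without C57BL/6 iNKT17 replicate 1 and 5 without C57BL/6 iNKT17 replicate 2.

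In Hivep3-/- mice the order of the subsets was the same, with iNKT2 cells the most open at 66 of the 86 regions and iNKT1 cells the least open at 78. iNKT2 cells were higher than iNKT1 cells at 80 regions with a median of 1.68, and of 85 tested 75 were higher (30.7% of all tested regions), 3 lower (28.5%) and 43 higher by at least 3-fold (8.54%). iNKT17 cells were higher than iNKT1 cells at 80 regions with a median of 1.17, and of 73 tested 63 were higher (27.4%), 3 lower (29.6%) and 19 higher by at least 3-fold (9.83%). Against iNKT17 cells, iNKT2 cells were higher at 68 regions with a median of 0.44, and of 85 tested 45 were higher (29.7%) and 9 lower (24.2%), with 8 higher (7.33%) and 2 lower (8.25%) by at least 3-fold. These comparisons share the Hivep3-/- libraries with the genotype comparisons. In the Hivep3-/- iNKT1 libraries 52 and 53 regions were at 5 or more. Part of the regions tested against iNKT1 cells thus entered through the other subset alone, where they were high, and the counts were not split by that route. Nor were those of iNKT2 against iNKT17 cells split by the subset through which a region met the limit.

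The largest differences of Hivep3-/- iNKT2 against iNKT1 cells were 4.51 ± 0.439 at 151.0 kb (limma adjusted p = 1.87e-06), 4.44 ± 0.79 at 127.3 kb (adjusted p = 0.000333) and 4.39 ± 0.342 at 158.3 kb (adjusted p = 2.67e-07). At 127.3 kb the iNKT1 libraries held -3.12 and -0.97 and the iNKT2 libraries 2.56 and 2.23. Against iNKT1 cells, iNKT17 cells were higher by 5.48 ± 0.788 at 127.3 kb (adjusted p = 5.75e-05), 3.37 ± 0.232 at 155.0 kb (adjusted p = 8.62e-08) and 3.24 ± 0.187 at 6.7 kb (adjusted p = 1.84e-08).

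Region 6.7 kb, at the near end of intron 2 (chr9:48829283-48829782), was an exception to the order of the subsets. It held 5.17 and 5.49 in C57BL/6 and 5.87 and 6.04 in Hivep3-/- iNKT17 libraries, 3.95 and 3.75 and then 3.55 and 3.74 in iNKT2 libraries, and 3.73 and 3.38 and then 2.55 and 2.87 in iNKT1 libraries. iNKT17 cells were the highest in both genotypes, and in Hivep3-/- mice iNKT2 cells fell below iNKT17 cells by 2.31 ± 0.187 (limma adjusted p = 5.66e-07). Region 128.8 kb behaved alike, with 5.20 and 5.17 in iNKT17, 3.14 and 3.71 in iNKT2 and 1.93 and 2.20 in iNKT1 libraries of Hivep3-/- mice. There the drop from iNKT17 to iNKT2 was by 1.76 ± 0.235 (adjusted p = 3.78e-05), under 3-fold without Hivep3-/- iNKT2 replicate 1 at -1.47. In the other direction, iNKT2 cells of Hivep3-/- mice were above iNKT17 cells by 2.19 ± 0.273 at 100.6 kb in intron 3 (adjusted p = 2.11e-05), 2.07 ± 0.217 at 188.8 kb downstream of the gene (adjusted p = 5.15e-06) and 2.04 ± 0.347 at 147.7 kb (adjusted p = 0.000283). Region 147.7 kb was below the level limit in Hivep3-/- iNKT17 cells and was tested through iNKT2 cells alone, where it was high.

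Among 263 protein-coding genes with at least 20 regions, 2 had more regions than Zbtb16. Only Blk, a kinase of the Src family, had a lower median log2 change in Hivep3-/- iNKT1 cells, while 36 genes had a lower one in iNKT2 and 9 in iNKT17 cells. These ranks are a description, and no test was made of them.

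Over the 12 libraries, the mean log2 value of Zbtb16 was compared with that of 2023 protein-coding genes that had at least 5 regions and a range of at least 1 between group means. The most alike by Pearson correlation were Sufu (r = 0.986, 17 regions), a negative regulator of Hedgehog signalling, Ntrk3 (r = 0.978, 18 regions), a neurotrophin receptor, Npas2 (r = 0.977, 14 regions), a factor of the circadian clock, Fntb (r = 0.974, 24 regions), a subunit of farnesyltransferase, and Map3k5 (r = 0.973, 21 regions), a stress kinase. These values are descriptions over libraries that fall into 6 groups. For Zbtb16 the group means ran from 2.79 in Hivep3-/- iNKT1 to 4.77 in C57BL/6 iNKT2 cells. For Npas2 they ran from 2.84 to 4.51 and for Ntrk3 from 2.62 to 4.66, with the same groups at both ends.

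The genes known to act upstream of Zbtb16 were taken from a list of 18, whose 275 regions were counted at any fold. In Hivep3-/- iNKT1 cells 28 of 247 tested regions fell (11.3%, with 4.01% of all tested regions) and 9 rose (3.64%, with 5.53%). In iNKT2 cells 16 of 244 fell (6.56%, with 8.23%) and 36 rose (14.8%, with 8.41%), and in iNKT17 cells 7 of 246 fell (2.85%, with 2.08%) and 8 rose (3.25%, with 2.74%). The median changes were -0.10, 0.06 and 0.05. Runx1, a factor that acts on Zbtb16, had 14 of 27 tested regions lower and 1 higher in iNKT1 cells, with a median of -0.44. Fyn, a kinase of the SLAM signal, had 5 of 33 lower and 1 higher. In iNKT2 cells Ets1, a T cell factor, had 13 of 34 higher and 1 lower, Bcl11b, a factor of T cell commitment, had 10 of 36 higher, and Runx1 had 7 of 27 lower and 2 higher. In iNKT17 cells Ets1 had 4 of 33 higher.

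Of 5 genes whose proteins work with PLZF (Cul3, Ncor1, Hdac1, Bcor and Rnf2), with 54 regions, limma called 0 of 52 tested regions in iNKT1 cells of Hivep3-/- mice, with 1 higher and 2 lower at an unadjusted p under 0.05. Of all tested regions in iNKT1 cells, 5.53% rose and 4.01% fell. In iNKT2 cells 3 of 53 rose (5.66%, with 8.41% of all tested regions) and 1 fell (1.89%, with 8.23%). In iNKT17 cells 3 of 52 rose (5.77%, with 2.74% of all tested regions) and 0 fell (with 2.08%), with 1 lower at an unadjusted p under 0.05. Of 13 genes known to respond to PLZF or to act with it in these cells, with 180 regions, 15 of 163 tested fell (9.20%) and 12 rose (7.36%) in iNKT1 cells, 13 of 154 fell (8.44%) and 14 rose (9.09%) in iNKT2 cells, and 9 of 155 fell (5.81%) and 7 rose (4.52%) in iNKT17 cells, to be read against the same shares of all tested regions. In iNKT1 cells Il4, the cytokine of iNKT2 cells, had 6 of 13 lower with a median of -0.53. Bach2, a repressor of effector genes, had 9 of 36 higher with a median of 0.20. In iNKT17 cells Bach2 had 3 of 36 higher and 1 lower, and Cd4, Il13 and Il4 had 3 lower each of 6, 8 and 11 tested. Il4 and Il13 share regions, since they are neighbours.

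Between the subsets the upstream and downstream genes had calls in both directions. Of iNKT2 against iNKT1 cells in C57BL/6 mice, 63 of 254 tested upstream regions were higher (24.8%) and 82 lower (32.3%), and of 171 tested regions of the downstream genes 52 were higher (30.4%) and 75 lower (43.9%), where all tested regions had 28.0% and 27.3%. Ets1 had 4 of 36 higher and 23 lower, Bach2 had 11 of 37 higher and 19 lower, and Bcl11b had 5 of 35 higher and 17 lower. Of iNKT17 against iNKT1 cells in C57BL/6 mice, 30.3% of the upstream regions were higher and 34.8% lower, and of the downstream ones 24.0% and 48.6%, where all tested regions had 28.2% and 30.3%. Bach2 had 13 of 39 higher and 17 lower there, Fyn 13 of 36 and 15, and Bcl11b 15 of 42 and 11. Of iNKT2 against iNKT17 cells in C57BL/6 mice, 30.9% of the upstream regions were higher and 31.3% lower, and of the downstream ones 35.4% and 29.3%, where all tested regions had 29.1% and 23.3%. Bcl11b had 4 of 41 higher and 22 lower, Ets1 4 of 34 and 18, Runx1 3 of 32 and 19, and Bach2 6 of 36 and 16.

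In Hivep3-/- mice the upstream regions of iNKT2 against iNKT1 cells were 34.9% higher and 25.4% lower and the downstream ones 32.4% and 39.9%, where all tested regions had 30.7% and 28.5%. Ets1 had 10 of 37 higher and 20 lower, Bach2 11 of 38 and 16, and Runx1 16 of 27 and 6. Of iNKT17 against iNKT1 cells, 37.8% of the upstream regions were higher and 27.1% lower, and of the downstream ones 29.5% and 40.9%, where all tested regions had 27.4% and 29.6%. Bcl11b had 27 of 42 higher and 4 lower, Runx1 24 of 31 and 3, and Bach2 11 of 40 and 15. Of iNKT2 against iNKT17 cells, 31.3% of the upstream regions were higher and 32.0% lower, and of the downstream ones 33.9% and 27.9%, where all tested regions had 29.7% and 24.2%. Bcl11b had 6 of 42 higher and 24 lower, Bach2 9 of 38 and 13, and Ets1 4 of 35 and 18.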

How the data were processed

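ATAC-seq libraries of sorted thymic iNKT1, iNKT2 and iNKT17 cells were used, 2 libraries for each of 3 subsets and 2 genotypes. The authors trimmed reads to 50 bp with Trimmomatic (0.39 per the submitters' processing notes), ran the ENCODE ATAC-seq pipeline on mm10, subsampled deep libraries for peak calling, merged the peaks of all replicates into regions of 500 bp and counted insertions with chromVAR. The deposited values are log2 normalised insertions per kb, which the authors made with voom, and no counts were used here, so depth and counting error are unknown. Insertion counts can carry the sequence preference of the transposase.

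Groups were compared on these log2 values with limma 3.58.1 in R 4.3.3 (1 mean per group over all 12 libraries, variance trend, 6 residual degrees of freedom), over the regions whose linear group mean reached 5 in a compared group. P-values were Benjamini-Hochberg adjusted over all tested regions. Calls were made where the adjusted p was below 0.1, with a change of 3-fold or more where stated. The fit was tested on simulated data, with changes put only into regions of higher level, so that test does not cover the weak regions. Tables were joined with Python 3.11.15 and pandas 2.3.3. Gene models were GENCODE vM21, on the same genome build, with coordinates counted from 1.

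The members and lists were chosen with earlier results of these data known. Named regions were those within 1000 bp of a start site, the 3 of highest mean, and the called regions of a comparison or, above 6 calls, the 3 largest in each direction. Pathway genes were named by their number of calls at any fold, in numbers of at most 4. The alternatives were other filters, pseudocounts, thresholds and normalisation, no variance trend, fewer libraries, other windows and a replicate block. The titles give the subsets of a genotype the same mouse numbers, which the block of the subset comparisons used as a shared source within each genotype. For the genotype comparisons and the interactions the block was a single term for the replicate number, shared by both genotypes. Deviations from the group means correlated across regions with r between 0.120 and 0.167 for the same number within a genotype, and between 0.0911 and 0.174 for the same number in different genotypes, so the correlations do not single out a source within a genotype. Some genes of the lists are not reported here, and the counts of their lists were made without them.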

Additional observations from a re-analysis of the deposited data

Results flagged for a closer look

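The change between the genotypes differed between subsets at 9 Zbtb16 regions by at least 3-fold, tested as an interaction in limma with Benjamini-Hochberg adjustment. All values are log2 differences with standard errors, and all are positive because the value in Hivep3-/- cells was lower, relative to C57BL/6, in iNKT1 cells than in the other subset.

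Between iNKT2 and iNKT1 cells, the largest was at 158.3 kb, 2.15 ± 0.484 (adjusted p = 0.0189), from a change of -2.15 in iNKT1 and -0.01 in iNKT2 cells. Region 59.8 kb had 1.97 ± 0.478 (adjusted p = 0.027), from -2.02 and -0.05. Region 139.7 kb had 1.89 ± 0.299 (adjusted p = 0.00325), from -1.64 and 0.25, with a higher mean in Hivep3-/- than in C57BL/6 iNKT2 cells. Region 173.9 kb had 1.82 ± 0.481 (adjusted p = 0.0394) and region 100.6 kb had 1.79 ± 0.385 (adjusted p = 0.0151). Regions 158.3, 59.8 and 100.6 kb were below the level limit in iNKT1 cells of both genotypes and were not tested there. The regions at 92.2 and 65.3 kb in intron 2 had 1.76 ± 0.294 (adjusted p = 0.00428) and 1.59 ± 0.303 (adjusted p = 0.0082).

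Between iNKT17 and iNKT1 cells, the region at the last exon, 180.3 kb, had 1.94 ± 0.35 (adjusted p = 0.0142), from -1.34 in iNKT1 (not tested there) and 0.60 in iNKT17 cells (adjusted p = 0.242), and kept its call without any 1 of the 8 libraries, with the adjusted p up to 0.0583. Region 158.3 kb had 1.92 ± 0.484 (adjusted p = 0.0659), region 173.9 kb had 1.82 ± 0.485 (adjusted p = 0.0818) and region 91.0 kb had 1.80 ± 0.406 (adjusted p = 0.0433). On leaving out 1 library, the adjusted p of these 3 reached 0.206, 0.275 and 0.158. None of the 11 differences has replicates beyond 2 libraries per group.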

How the results depend on the processing

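Values without counts leave the depth of each library unknown, and 2 libraries per group leave the spread to be estimated over all groups. Of 711 alternative values of 57 single results for regions, 635 kept their direction and their side of the combined limit on the adjusted p and 3-fold, 69 no longer passed and 7 changed sign. Among the 635, at the adjusted p alone, 16 lost a call and 8 gained one. A pseudocount of 5 accounted for 27 of those that no longer passed and a pseudocount of 1 for 13. The counts past 3-fold follow as the value reported and the values that moved, and the cause was not tested. For the genotype in iNKT1 cells, 6 became 16 with no filter, 12 with a filter on the mean over all libraries, 1 with a pseudocount of 1, 0 with a pseudocount of 5 and 15 at 2-fold, and 5 to 8 without 1 library. For the genotype in iNKT2 and iNKT17 cells, 0 became 1 and 1 at 2-fold, and stayed 0 to 0 without 1 library. With a pseudocount of 5, the subset comparisons of C57BL/6 mice went from 24 to 6 (iNKT2 against iNKT1), from 9 to 2 (iNKT17 against iNKT1) and from 3 to 0 (iNKT2 against iNKT17), and those of Hivep3-/- mice from 43 to 17, 19 to 4 and 10 to 1. At 2-fold they were 40, 26 and 18 in C57BL/6 and 39 and 21 in the last 2 comparisons of Hivep3-/- mice, and with no filter the 19 became 29. Without 1 library they ranged from 23 to 26, 7 to 9 and 2 to 7 in C57BL/6 mice, and from 42 to 43, 19 to 24 and 7 to 11 in Hivep3-/- mice. The interaction of iNKT2 against iNKT1, 7, became 0 with a pseudocount of 1 or 5 and 17 at 2-fold, and ranged from 5 to 9 without 1 library. That of iNKT17 against iNKT1, 4, became 0 with a pseudocount of 1 or 5, 2 with no variance trend, 2 with the libraries of the compared groups alone, 11 at 2-fold and 2 at an adjusted p under 0.05, and ranged from 1 to 4 without 1 library. It was 1 without C57BL/6 iNKT1 replicate 1 or C57BL/6 iNKT17 replicate 1, and 2 without Hivep3-/- iNKT1 replicate 1 or Hivep3-/- iNKT17 replicate 2. At any fold, the genotype count in iNKT2 cells, 8, became 15 with a pseudocount of 5 and ranged from 1 to 6 without 1 library. That in iNKT17 cells, 4, became 8 with a pseudocount of 5 and 2 with no variance trend and ranged from 0 to 9, and that in iNKT1 cells, 45, ranged from 28 to 43. The interactions at any fold, 29, 18 and 0, ranged from 17 to 28, 5 to 17 and 0 to 2, the 18 became 9 with no variance trend, and the 0 became 2 and 4 with pseudocounts of 1 and 5. With the replicate block, the genotype counts at any fold became 17 in iNKT2 and 17 in iNKT17 cells and the interaction of iNKT2 against iNKT17 became 4, and no count past 3-fold moved by over 1.5 times. Between genotypes the libraries share only a number, with correlations of their deviations of 0.171, 0.145 and 0.113. As a mean of log2 values, the change of the locus level was -46.0%, -11.5% and -14.8% in iNKT1, iNKT2 and iNKT17 cells, and without 1 library it ranged from -32.8% to -27.6%, from -9.80% to -7.45% and from -10.00% to -6.17%. The sign changed at 1.0 kb in iNKT2 cells, to -0.06 and -0.12 without C57BL/6 or Hivep3-/- replicate 2 (range over left-out libraries -0.117 to 0.127), at the start site in iNKT2 cells, to 0.0490 without Hivep3-/- replicate 2 (from -0.219), and at 1.2 kb upstream in iNKT2 cells, to -0.0360 without C57BL/6 replicate 2 (up to 0.318). It also changed at 29.4 kb, to 0.00802 in iNKT1 cells without Hivep3-/- replicate 2 (from -0.0820), and to 0.0577 and 0.0435 in iNKT17 cells (from -0.0639) without C57BL/6 replicate 2 or Hivep3-/- replicate 1.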
